A study of Mus musculus with 4 samples.

Results

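The miRNAs described here are red cell and liver miRNAs, read in exosomes released by BV2 cells, an immortalized mouse microglial line. They were chosen by name: mmu-miR-451a, mmu-miR-486a-5p, mmu-miR-486b-5p, mmu-miR-144-3p and mmu-miR-122-5p. All 5 names were among the 603 miRNA names with a value in each library. The names mmu-miR-486a-5p and mmu-miR-486b-5p had the same number of reads in every library, so the 5 names held 4 distinct sets of reads. The shared reads were counted once in sums of these names. Small RNA was sequenced in 4 libraries of exosomes from wild-type BV2 cells, 2 from the control group and 2 from the heatstroke (HS) group. The control cells were held at 37 °C for 2 h. The HS cells spent 2 h at 42 °C, followed according to the methods by 12 h of rewarming at 37 °C, although the study's results section gives another time of harvest. The libraries are named control 1, control 2, HS 1 and HS 2 below. No agent or genetic change was used, and BV2 is 1 line in culture, so replicates are libraries of the same line. Nothing in the labels says whether they came from separate cultures, and the spread between them may be technical. The question asked of these names was whether miRNAs that a microglial line is not expected to make were present in its exosomes, and whether their shares differed between the HS and control groups.

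MiR-451a, miR-144 and miR-486 are miRNAs of the red cell lineage. MiR-451a and miR-144 are made from 1 cluster that GATA1 switches on in erythroid cells, and miR-486-5p is abundant in red cells and skeletal muscle. MiR-122-5p is the main miRNA of hepatocytes and takes part in the control of cholesterol and lipid metabolism. All are common in plasma and serum, where they travel in vesicles, in lipoproteins or bound to Argonaute proteins, and their mature forms are conserved among mammals, so reads of a serum animal and of mouse cells may carry the same name. The serum of the culture medium is not given in the sources used here, and no library of medium without cells was analysed, so the origin of the reads was not tested.

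The mature sequences of the red cell cluster are shown because miR-451a was the steadiest of the described miRNAs and miR-144-3p, from the neighbouring precursor, was almost unread. They are RefSeq sequences of build GRCm38.p6, 5′ to 3′, with the seed (bases 2 to 8) in capitals.
mmu-miR-451a: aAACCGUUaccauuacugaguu
mmu-miR-144-3p: uACAGUAUagaugauguacu
mmu-miR-144-5p: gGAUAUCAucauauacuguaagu
The 3 seeds differed from each other, and none of the 1679 mature mouse names in the RefSeq table shared a seed with any of them. A RefSeq sequence was matched for 2 of the 5 names, mmu-miR-451a and mmu-miR-144-3p. In GRCm38 the gene Mir144 lies on the plus strand at chr11:78073005-78073070 and Mir451a on the plus strand at chr11:78073170-78073241, with 99 bases between them. GENCODE M21 annotates no host gene for either, and only Mir451b, on the minus strand, overlaps Mir451a. The Mir451a precursor of 72 bases carries the mature sequence at bases 17 to 38. This precursor is known to be cut by Argonaute 2 without Dicer, which leaves a mature sequence that runs from the 5′ arm into the loop. The gene Mir486 lies on the plus strand at chr8:23142555-23142682, within Ank1, which encodes the red cell membrane protein ankyrin-1, and overlaps no exon of it. On the other strand it overlaps the miRNA gene Mir3107, and the gene Gm15816 without touching an exon of it.

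Each value is a read count over the size factor of its library, called a normalized count below, and the whole reads behind it were recovered. Listed reads, meaning reads on the 603 names, numbered 96516 for control 1, 121503 for control 2, 42091 for HS 1 and 113966 for HS 2. In these totals, reads that several names share are counted once for each name. HS 1 stood apart, with 228 names detected against 420 to 444 in the other libraries. A name with 0 reads can still hold up to 3, which is 0.00713% of the listed reads of HS 1 and 0.00247% to 0.00311% elsewhere. Reads come from PCR and are not separate molecules, so intervals and limits describe counting error alone. The microglial label was checked against 6 myeloid miRNAs. MiR-146a-5p, an inflammation-induced miRNA, made up between 1.27% and 2.34% of the listed reads of each library. MiR-223-3p, a defining miRNA of granulocytes and macrophages, was read 5 times in control 1, 2 times in control 2, 3 times in HS 1 and 0 times in HS 2. MiR-142a-5p, of the blood cell lineages, was read 205, 281, 33 and 248 times in the same order, and miR-155-5p, which inflammatory signals induce in macrophages, 176, 188, 26 and 186 times. The opposite arm of miR-142a-5p, miR-142a-3p, was read 17, 3, 0 and 3 times in the same order. Thus miR-223-3p was close to absent and miR-142a-3p was low, with 0 reads in HS 1. MiR-146a-5p, miR-142a-5p and miR-155-5p were present in every library.

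Reads of the red cell and liver miRNAs were present in every library but were few. Summed over the 4 distinct sets, control 1 held 92 of them and control 2 held 284, while HS 1 held 137 and HS 2 held 281. The share of the listed reads was 0.0953% in control 1 (95% Wilson interval 0.0777% to 0.117%) and 0.234% in control 2 (0.208% to 0.263%). It was 0.325% in HS 1 (0.275% to 0.385%) and 0.247% in HS 2 (0.219% to 0.277%). By share each HS library exceeded both controls, although the intervals of control 2 and HS 2 overlapped. How many of all names did so by share was not counted. The mean share was 0.165% ± 0.0979 (SD, n = 2) for the controls against 0.286% ± 0.0558 (SD, n = 2) after heat, and the mean log2 share differed by 0.92. An exact two-sided permutation test gave p = 0.333, the smallest that 2 libraries against 2 allow. The difference was 0.28 when control 1 was left out and 1.57 when control 2 was. In summed normalized counts the groups overlapped: control 1 had 76.9 and control 2 had 192.5, HS 1 had 331.3 and HS 2 had 186.4. Their mean log2 values differed by 1.03. A share can be higher because more of a miRNA was present or because other miRNAs were fewer, and these cannot be told apart here.

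The higher summed share of the HS libraries was that of miR-122-5p. The red cell miRNAs by themselves made up 0.0673% of listed reads in control 1, 0.0897% in control 2, 0.0974% in HS 1 and 0.0658% in HS 2. The lowest and the highest value were both from HS libraries. The means were 0.0785% ± 0.0158 (SD, n = 2) for the controls and 0.0816% ± 0.0223 (SD, n = 2) for HS, with a log2 difference of 0.043.

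**Figure D1:**
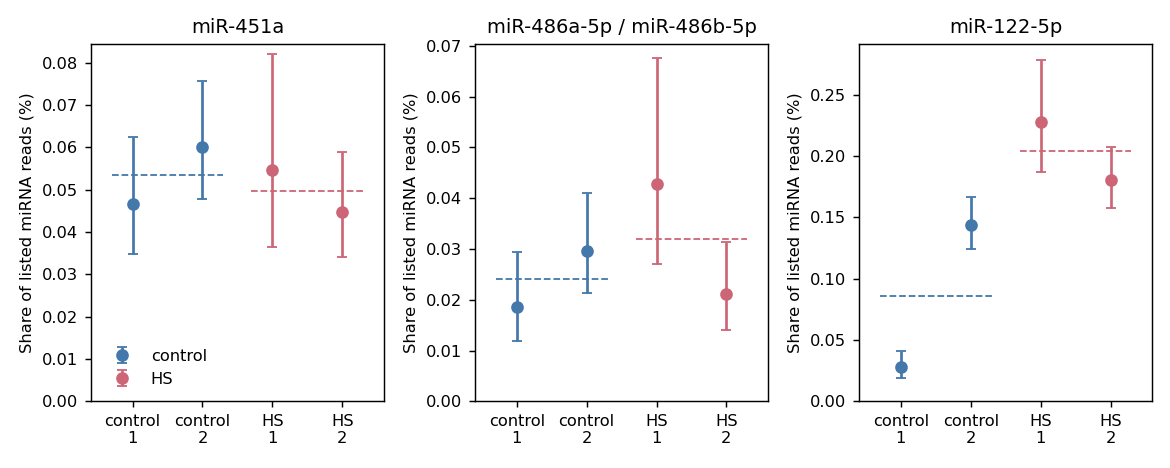
Share of the listed miRNA reads (%, y axis from 0) in each of the 4 libraries for miR-451a, miR-486a-5p with miR-486b-5p, and miR-122-5p. Points are libraries, bars are 95% Wilson intervals, dashed lines are group means, and the miR-122-5p value of control 1, 0.0280%, lies far under the other 3.

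mmu-miR-451a, which marks erythroid cells, was read 45 times in control 1, 73 times in control 2, 23 times in HS 1 and 51 times in HS 2. Its share was 0.0466% in control 1 (95% Wilson interval 0.0348% to 0.0624%) and 0.0601% in control 2 (0.0478% to 0.0755%). In HS 1 it was 0.0546% (0.0364% to 0.0820%), and in HS 2 it was 0.0448% (0.0340% to 0.0588%). The libraries of the groups interleaved, and all 4 intervals overlapped. Its normalized count averaged 43.5 ± 8.39 (SD, n = 2) for the controls and 44.7 ± 15.4 (SD, n = 2) for HS. The fitted log2 fold change of miR-451a, HS over control, was 0.0085 with a standard error of 0.76 and a 95% interval of -2.04 to 2.06 (limma, adjusted p = 0.999). An interval this wide covers a 2-fold change in either direction. The direction was not stable: leaving out HS 1 gave -0.34, and leaving out HS 2 gave 0.36.

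MiR-451a differed less between the libraries than most names. Its highest library share was 1.34-fold the lowest. Over the 157 names with at least 100 reads in all, the median of this ratio was 3.39, and 3 names had a smaller one than miR-451a. In HS 1, 104 of the 157 names had a smaller share than the median of the other libraries. The median name was at 0.650-fold there, while miR-451a was at 1.17-fold, miR-122-5p at 1.58-fold and miR-486a-5p, which has 96 reads in all and is not among the 157, at 2.03-fold. Of the 157 names, 45 were above miR-451a by this ratio and 33 above miR-122-5p, so many other names also had a raised share in that library.

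**Figure D2:**
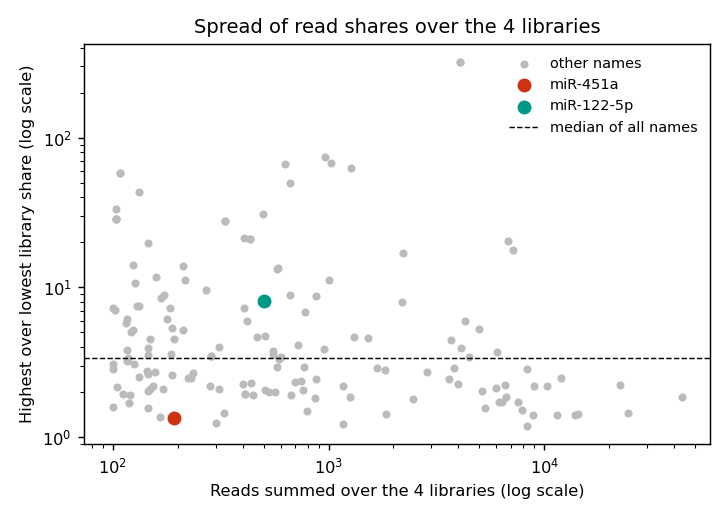
Highest over lowest library share (log scale) against the reads summed over the 4 libraries (log scale) for the 157 names with at least 100 reads, with a library under 3 reads set to 3. The dashed line is the median of 3.39. MiR-451a lies near the bottom at 1.34 and miR-122-5p above the median at 8.15.

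The names mmu-miR-486a-5p and mmu-miR-486b-5p had 18 reads in common in control 1, 36 in control 2, 18 in HS 1 and 24 in HS 2. The share was 0.0186% in control 1 (95% Wilson interval 0.0118% to 0.0295%) and 0.0296% in control 2 (0.0214% to 0.0410%). In HS 1 it was 0.0428% (0.0271% to 0.0676%), and in HS 2 it was 0.0211% (0.0142% to 0.0313%). HS 1 was the highest library, and HS 2 lay between the controls. The normalized count averaged 19.7 ± 6.61 (SD, n = 2) for the controls and 29.7 ± 19.5 (SD, n = 2) for HS. The fitted log2 fold change of miR-486-5p was 0.44, less than its standard error of 0.88, with a 95% interval of -1.94 to 2.83 (limma, adjusted p = 0.845). It was -0.25 when HS 1 was left out and 1.14 when HS 2 was.

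The ratio of miR-486-5p to miR-451a did not differ detectably between the libraries at this depth. For each miR-451a read there were 0.400 miR-486-5p reads in control 1 (95% interval 0.233 to 0.686) and 0.493 in control 2 (0.332 to 0.733). HS 1 had 0.783 (0.426 to 1.44) and HS 2 had 0.471 (0.291 to 0.761). All 4 intervals overlapped.

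mmu-miR-144-3p, which is cut from the precursor next to that of miR-451a, was read 2 times in control 1 and not at all in the other 3 libraries. The 2 reads were 0.00207% of the listed reads (95% Wilson interval 0.000568% to 0.00756%). A count of 0 allows shares of up to 0.00247% for control 2, 0.00713% for HS 1 and 0.00263% for HS 2. The opposite arm, miR-144-5p, was read 4 times in control 2 and 0 times elsewhere. Over all libraries both arms of miR-144 had 6 reads against 192 of miR-451a, and miR-144-3p was too low to be tested.

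mmu-miR-122-5p, the hepatocyte miRNA, was the most abundant of the described miRNAs in 3 of the 4 libraries, the exception being control 1. It was read 27 times in control 1, 175 times in control 2, 96 times in HS 1 and 206 times in HS 2. Its share was 0.0280% in control 1 (95% Wilson interval 0.0192% to 0.0407%) and 0.144% in control 2 (0.124% to 0.167%). In HS 1 it was 0.228% (0.187% to 0.278%), and in HS 2 it was 0.181% (0.158% to 0.207%). Each HS library exceeded both controls, although the intervals of control 2 and HS 2 overlapped, and control 1 was far under the other 3 libraries. By normalized count each HS library was also above both controls, as in 47 of the 376 names tested below (12.5%). The controls differed 5.15-fold from each other, well beyond counting error, whereas HS 1 and HS 2 differed 1.26-fold with overlapping intervals. Among the listed names miR-122-5p ranked 153 in control 1, 73 in control 2, 44 in HS 1 and 66 in HS 2. The ranks of miR-451a were 116, 110, 87 and 112 in the same order.

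The group difference of miR-122-5p did not pass the test. Its normalized count averaged 70.6 ± 67.9 (SD, n = 2) for the controls and 184.4 ± 67.5 (SD, n = 2) for HS, 2.61-fold higher by the means. The fitted log2 fold change of miR-122-5p was 1.75 with a standard error of 1.10 and a 95% interval of -1.21 to 4.72 (limma, adjusted p = 0.621). The exact two-sided permutation test gave p = 0.333, the smallest it can give. Leaving out control 1 gave a log2 fold change of 0.58, and leaving out control 2 gave 2.93. It was 1.37 when HS 1 was left out and 2.13 when HS 2 was. Of the 157 names with at least 100 reads, none had a lower share in control 1, relative to the median of the other libraries, than the 0.155-fold of miR-122-5p.

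The makeup of the summed reads moved with miR-122-5p. It held 29.3% (95% Wilson interval 21.0% to 39.3%) of the 92 reads of control 1 and 61.6% (55.8% to 67.1%) of the 284 reads of control 2. It held 70.1% (61.9% to 77.1%) of the 137 reads of HS 1 and 73.3% (67.8% to 78.1%) of the 281 reads of HS 2. The share of miR-451a in the same sums was 48.9%, 25.7%, 16.8% and 18.1% in the same order. For each miR-451a read there were 0.600 miR-122-5p reads in control 1 (0.374 to 0.963) and 2.40 in control 2 (1.83 to 3.15). HS 1 had 4.17 (2.66 to 6.55) and HS 2 had 4.04 (2.98 to 5.48). The liver and red cell miRNAs did not keep 1 ratio, since the interval of control 1 was under those of the other 3 libraries.

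**Figure D3:**
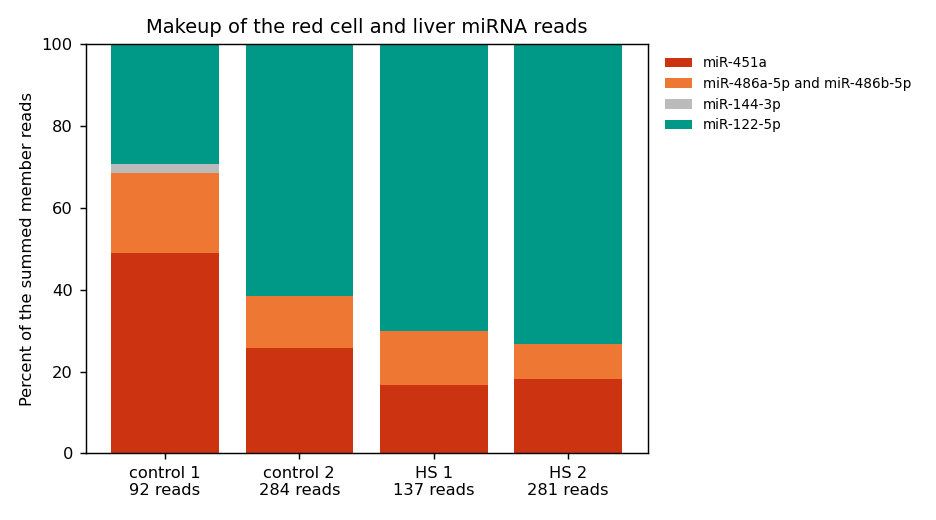
Percent of the summed red cell and liver miRNA reads held by each miRNA (y axis), in stacked bars for the 4 libraries, with the summed reads under each bar. MiR-122-5p held 29.3% in control 1 and 61.6% to 73.3% in the other libraries, and miR-144-3p shows only in control 1.

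Across all names, 376 had at least 10 reads over the 4 libraries together and were tested with limma on log2(normalized count + 1), a scale that understates the change of names with few reads. The study's criterion asks for more than 2-fold and an unadjusted p under 0.05. It called 31 of the 376 names (8.24%), 6 higher and 25 lower in HS. None of the 4 tested names described here, which hold 3 distinct sets of reads, was called. With an adjusted p under 0.05, limma called 0 of the 376 names (0%), with 31 at an unadjusted p under 0.05, and edgeR's quasi-likelihood test and DESeq2's Wald test also called 0 (32 and 29 unadjusted). In 47 names (12.5%) each HS library had a higher normalized count than both controls, and among the 4 tested names described here this held for 1, miR-122-5p. Names that share reads are each counted in the 376, the 31 and the 47. The median log2 fold change was -0.65 over all tested names and 0.44 over the 4 names. The median over all tested names was -0.17 when HS 1 was left out and -1.38 when HS 2 was, and the study's criterion called 113 names without HS 2. Log2 fold changes at or above that of miR-122-5p were found for 34 of the 376 names, miR-122-5p included.

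**Figure D4:**
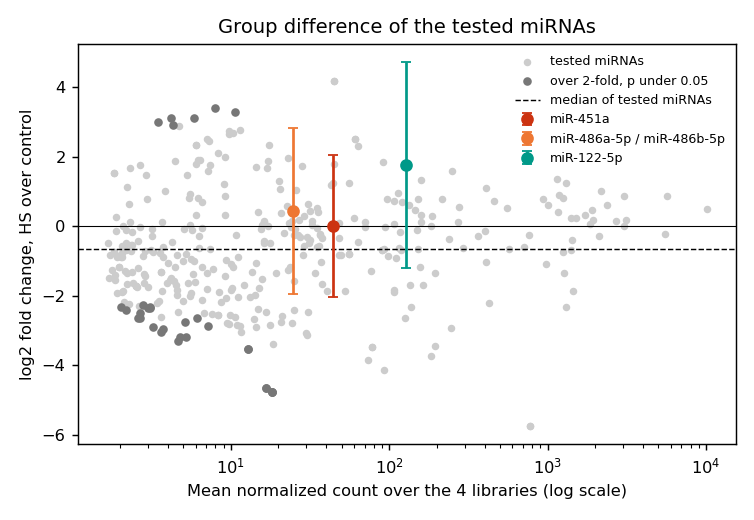
Log2 fold change (HS over control, limma) against the mean normalized count over the 4 libraries (log scale) for the 376 tested names, with 95% intervals for miR-451a, miR-486-5p and miR-122-5p. The dashed line is the median of all tested names, -0.65. The 3 intervals all include 0, and none of the 31 called names in dark grey is among them.

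The other red cell miRNAs are made by many cell types as well. All 10 names of this list had a value, 9 were tested and 0 were called, with a median log2 fold change of -1.02. MiR-92a-3p, of the miR-17-92 cluster, and miR-25-3p, of the miR-106b-25 cluster, which share a seed, carried most of their reads. MiR-92a-3p made up 6.97% of listed reads in control 1, 7.57% in control 2, 6.30% in HS 1 and 5.23% in HS 2 (limma log2 fold change -0.23, adjusted p = 0.897). MiR-25-3p made up 1.76%, 1.98%, 1.81% and 2.66% in the same order (log2 fold change 0.34, adjusted p = 0.854). MiR-16-5p, a regulator of the cell cycle that is also abundant in red cells, was read 74 times in control 1, 54 times in control 2, 6 times in HS 1 and 54 times in HS 2. It was low in HS 1, where miR-451a was not.

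Of 6 names of other liver miRNAs, 4 had a value and were tested, and 0 were called. In 3 of the 4 each HS library was under both controls, as it was in 122 of all 376 tested names (32.4%). Their median log2 fold change was -1.87, against -0.65 over all tested names. MiR-148a-3p, which many cell types make, was read 1096 times in control 1, 668 times in control 2, 28 times in HS 1 and 426 times in HS 2 (limma log2 fold change -2.21, adjusted p = 0.617). MiR-192-5p, of liver, gut and kidney, was read 42, 116, 25 and 98 times in the same order (log2 fold change 0.25, adjusted p = 0.897). Like miR-122-5p it had a lower share in control 1 (0.0435%) than in control 2 (0.0955%). Unlike miR-122-5p, which was highest in HS 1, it had a lower share in HS 1 (0.0594%) and HS 2 (0.0860%) than in control 2. No intervals were computed for these miR-192-5p shares, so counting error was not set against their differences.

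Platelet and plasma miRNAs had their lowest summed share in HS 1. The 6 names held 4.66% of listed reads in control 1, 3.74% in control 2, 1.73% in HS 1 and 4.60% in HS 2, with a median log2 fold change of -1.12. MiR-24-3p and miR-191-5p, both widely expressed, were the most abundant. MiR-24-3p was read 2950, 3122, 606 and 3614 times in the same order, and miR-191-5p 995, 1146, 120 and 1442 times. Of the 6, 1 met the study's criterion, as did 31 of all 376 tested names (8.24%). The 1 name was miR-126a-5p, an endothelial and platelet miRNA. It was read 14 times in control 1, 11 times in control 2, 0 times in HS 1 and 2 times in HS 2 (limma log2 fold change -2.76, adjusted p = 0.516). The opposite arm, miR-126a-3p, was read 515, 261, 1 and 188 times.

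Markers of muscle, heart and pancreas were read less often. Of 9 such names 5 had a value, 3 were tested and 0 were called, with 36 reads in control 1, 18 in control 2, 0 in HS 1 and 29 in HS 2. MiR-1a-3p, of striated muscle, held most of them, with 26, 14, 0 and 20 reads in the same order. MiR-375-3p, of pancreatic islets, had 5, 2, 0 and 4 reads. The red cell and liver miRNAs had more reads than this list in each library, and in HS 1 the counts were 137 and 0.

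The 6 myeloid miRNAs, 1 of them shared with the platelet list, held 6.76% of listed reads in control 1, 2.96% in control 2, 1.68% in HS 1 and 3.80% in HS 2. None of the 6 was called. MiR-21a-5p, which many cell types make, alone held 4.83% in control 1. The other 5 held 1.93%, 2.04%, 1.41% and 2.72% in the same order. The part of these other miRNAs in the shares of the red cell and liver miRNAs was not tested.

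The tested miRNAs nearest in pattern were found by the distance between log2(normalized count + 1) values centred over the 4 libraries, which describes 4 points only. For miR-451a these were miR-7a-5p (distance 0.14), miR-30a-3p (0.18) and miR-128-3p (0.19). MiR-7a-5p had a normalized count of 228.2 in control 1, 283.3 in control 2, 353.0 in HS 1 and 221.6 in HS 2, the same order of libraries as miR-451a. For miR-486-5p the nearest were miR-1198-5p (0.23), let-7d-3p (0.29) and miR-130b-5p (0.33), each with its highest normalized count in HS 1. For miR-122-5p they were names with few reads, miR-702-5p (0.23, 16 reads in all), miR-690 (0.54, 51 reads) and miR-219a-1-3p (0.78, 29 reads). MiR-690 was read 3 times in control 1, 16 times in control 2, 13 times in HS 1 and 19 times in HS 2, and like miR-122-5p was lowest in control 1.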

How the data were processed

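Small RNA libraries of BV2 exosomes, 2 control and 2 HS, were analysed from the values the authors deposited. The authors trimmed adapters, dropped reads that were under 17 nt or of low quality, and aligned what was left with bowtie; the build and versions are not given in the sources used here. The deposited signal values, headed RPKM, were whole multiples of 1 step per library (100% of values above 0, tolerance 0.0001) and equal read counts divided by median-of-ratios size factors of 1.20, 1.48, 0.414 and 1.51. Reads were recovered by dividing by the smallest value above 0.

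Groups were taken from the sample titles. Shares refer to reads on the 603 names. All names with at least 10 reads were compared with limma 3.58.1 (R 4.3.3; pseudocount of 1, eBayes without a trend, Benjamini-Hochberg adjustment, no block); edgeR 4.0.16 and DESeq2 1.42.0 on recovered reads, other filters, pseudocounts and scalings, a replicate block and leaving out each library were alternatives. The limma, edgeR and DESeq2 fits were tested on simulated data with large planted changes and no library that stood apart. That setting does not measure their power on these libraries. Exact permutation tests used scipy 1.17.1. By rule, the 5 names, the 2 most abundant of each list with any called, and the 3 names nearest in pattern are named. MiR-16-5p, miR-126a-3p, miR-142a-3p, miR-142a-5p, miR-155-5p and miR-223-3p, and the spread of shares over libraries, were chosen after values were seen. The members and lists were chosen with earlier results of these data known. Positions come from GENCODE M21 (GRCm38) and sequences from RefSeq (GRCm38.p6); the table's build was not compared with the authors' build.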

Additional observations from a re-analysis of the deposited data

How the results depend on the processing

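No setting called miR-451a, miR-486-5p or miR-122-5p over the 14 alternatives tried for each. The log2 fold change of miR-122-5p stayed above 0 in all 14, from 0.58 to 2.93 when 1 library was left out, with adjusted p-values from 0.424 to 0.882. That of miR-451a turned negative with scaling by the total of listed reads (-0.10) and in edgeR's quasi-likelihood test (-0.0068), and ranged from -0.34 to 0.36 when 1 library was left out. That of miR-486-5p ranged from -0.25 to 1.14 when 1 library was left out and kept its direction under every other alternative. The summed share differed by a log2 value of 0.043 without miR-122-5p, against 0.92 with it, and by 0.28 to 1.57 when 1 library was left out. The value was 0.90 when reads shared by names with at least 10 reads were counted once in the listed total, and 1.03 in summed normalized counts. The number of called names was 31, and became 16 with a pseudocount of 5, 12 with edgeR's filterByExpr and 26 to 113 when 1 library was left out, the highest without HS replicate 2. The median log2 fold change of all tested names was -0.65 as deposited, -0.93 with scaling by the total of listed reads and -0.63 with TMM scaling. It was -0.33 in edgeR's quasi-likelihood test and with a pseudocount of 5, -0.17 without HS replicate 1 and -1.38 without HS replicate 2. The higher and lower calls were 6 and 25 in limma, 9 and 20 with TMM scaling, 13 and 19 in edgeR's quasi-likelihood test and 14 and 15 in DESeq2. The cause of these changes was not tested.

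With the replicate number as a block, 19 names were called. Same-numbered libraries share only a number, and their deviations from the group means had a Pearson correlation of -0.097 and a Spearman correlation of -0.14 across names. A crossed pairing, chosen after seeing the data, called 52, of which none was a red cell or liver miRNA described here. It was the only setting with any adjusted p under 0.05, for 7 names. The numbers 31, 19 and 52 do not say which names were called. With 42091 listed reads, HS replicate 1 limits every share of a name with few reads.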
